A study of Mus musculus with 5 samples.

Results

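Prdm16 and 9 genes whose proteins are known to work with it, or are closely related to it, were followed in injured mouse kidneys: Mecom, Ctbp1, Ctbp2, Ehmt1, Ehmt2, Cebpb, Zfp516, Ebf2 and Med1. They were chosen by gene name, and all 10 were found among the 35478 genes listed. The tissue, cortex by the study's methods, came from 5 male mice, aged 7 to 8 weeks when used for the injury model. Each mouse gave 1 library, of 14939040 to 16425161 counts. The mice were labelled C57BL/6J and described in the methods as C57BL/6J;129. All of them carried the floxed Prdm16 allele, with loxP sites around exon 9, on both chromosomes, and all had undergone UIRI, a unilateral ischemia-reperfusion injury made by clamping the left renal pedicle for 35 min at 38.5 °C. The right kidney was removed on day 10, and the injured kidney was taken on day 11, 24 hours later. The 3 Ksp-Cre/Prdm16fl/fl mice (numbered 1, 2 and 3) also carried Cre recombinase under the promoter of Cdh16, the kidney-specific cadherin of tubular epithelium, and the 2 Prdm16fl/fl mice (numbered 1 and 3) did not. No uninjured kidney and no Cre-only kidney was analysed here, so the comparison is of genotype within injury.

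PRDM16 is a zinc finger protein of the PRDM family that is best known as a switch of brown fat identity. It raises the thermogenic program together with the transcription factor C/EBPβ, encoded by Cebpb, and with the Mediator subunit MED1. It holds white fat genes down through the corepressors CtBP1 and CtBP2, and it works with EHMT1, an enzyme that methylates lysine 9 of histone H3. EBF2 and ZFP516 are DNA-binding proteins of brown adipocytes that act on some of the same genes, and MECOM is the closest relative of PRDM16. In the kidney PRDM16 is studied for its effect on mitochondria and fibrosis in tubular cells.

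In these kidneys Prdm16 was read in every library of both genotypes. The level was 25.3 and 20.0 CPM (counts per 1000000 counts of the library, after TMM scaling) in Prdm16fl/fl mice 1 and 3. The values of Ksp-Cre/Prdm16fl/fl mice 1, 2 and 3 were 17.1, 17.0 and 18.0 CPM, each below both Prdm16fl/fl mice. The log2 fold change, given throughout as Ksp-Cre/Prdm16fl/fl minus Prdm16fl/fl, was -0.38 ± 0.15 (SE, 95% interval -0.76 to -0.01), a level 23.4% lower, and it did not pass the test across all genes (edgeR quasi-likelihood, unadjusted p = 0.0468, Benjamini-Hochberg adjusted p = 0.259). In raw reads the gene had 375 and 279 counts against 302, 287 and 270.

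The separation of the genotypes depended on the scale. In the deposited TPM, counts per exon length scaled to the same total in each library, Prdm16 was at 5.86 and 4.21 in the Prdm16fl/fl mice and at 4.64, 4.58 and 4.34 in the Ksp-Cre/Prdm16fl/fl mice, and the groups overlapped. The log2 difference of TPM + 1 was -0.11 ± 0.19 (limma, adjusted p = 0.701). On that scale the median of all genes tested was itself 0.228, against 0.038 in the count test, and relative to these medians Prdm16 stood at -0.34 and -0.42. Without Prdm16fl/fl mouse 1, the library with the highest level, the fold change was -0.21 (edgeR, adjusted p = 0.737), and without Prdm16fl/fl mouse 3 it was -0.54 (adjusted p = 0.573).

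The count of a gene adds up reads from all its exons and does not measure the deleted one by itself, so these values do not check the deletion. The study's methods name exon 9 as the deleted exon and describe it as longer than the exon of that number in the annotation used here, so the 2 may not be the same exon. In the GENCODE M21 annotation (GRCm38), exon 9 is at chr4:154340721-154342137 on the minus strand and lies wholly in coding sequence. Its 1417 bases are 16.5% of the 8601 bases of a transcript of 17 exons and 37% of the coding sequence, and 7 of 13 annotated transcripts contain it. The sequence at its 5′ border is shown because reads across it come from an mRNA that still holds the start of this annotated exon, with 30 bases on each side of the junction and exon 9 in capitals.
Exon 8 to exon 9: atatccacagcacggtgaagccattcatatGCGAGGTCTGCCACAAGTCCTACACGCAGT
The length of exon 9 leaves a remainder of 1 when divided by 3. Reads over this junction were not analysed here, so the share of recombined mRNA was not measured.

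**Figure D1:**
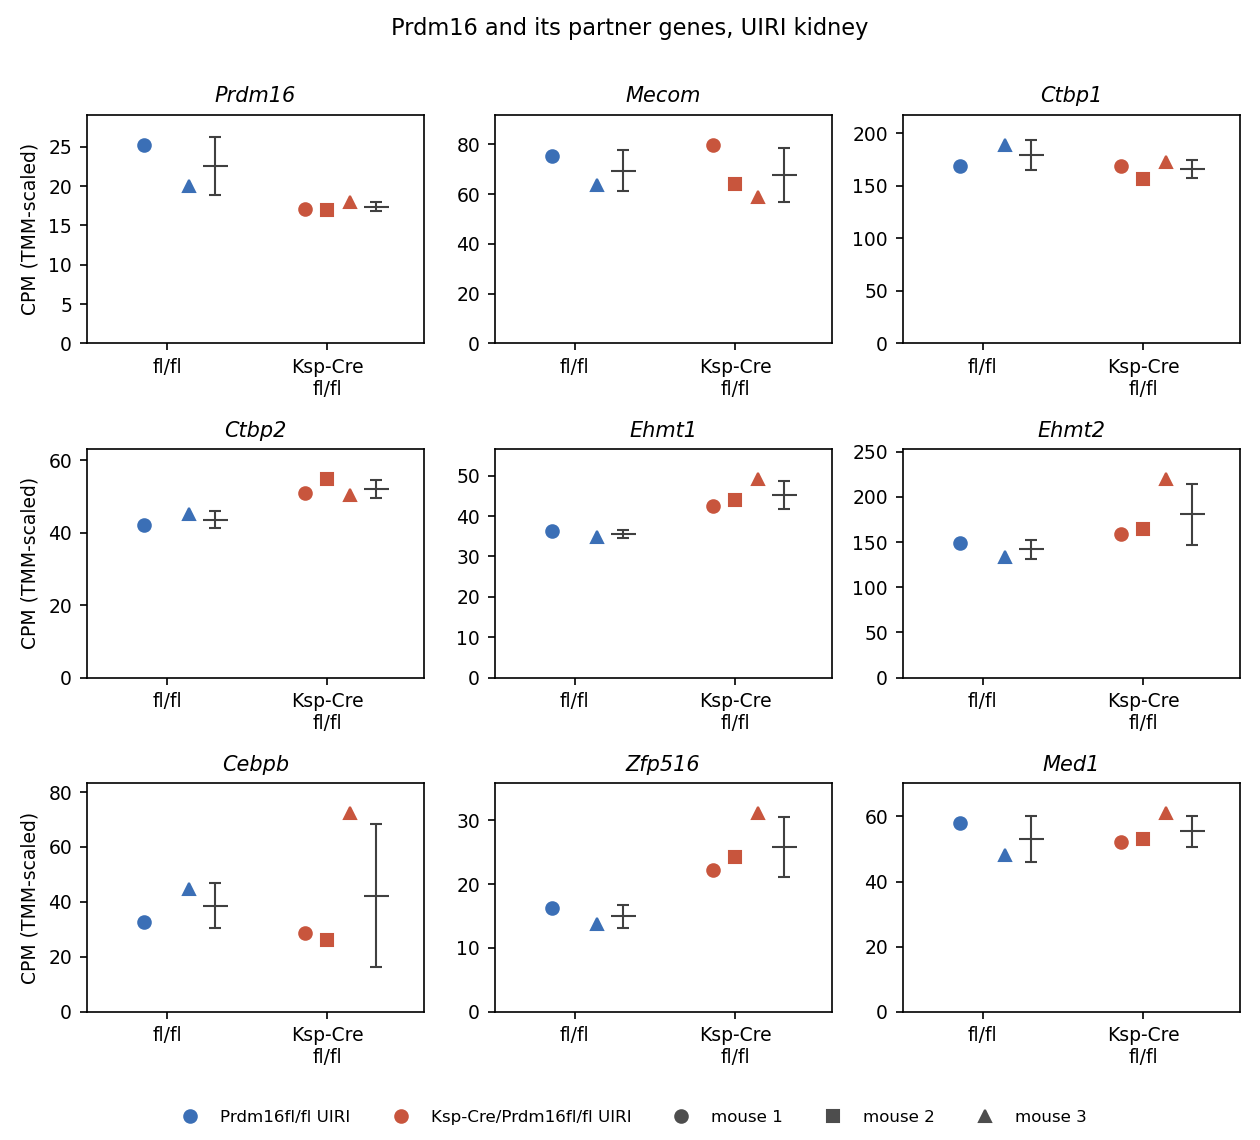
TMM-scaled CPM of the 9 tested genes in each of the 5 libraries, with 1 panel per gene and its own axis from 0. Symbols mark the mouse number, colors the genotype, and the bar beside each group its mean with the SD (n = 2 and n = 3). Prdm16 was lower in all 3 Ksp-Cre/Prdm16fl/fl mice, Ctbp2, Ehmt1, Ehmt2 and Zfp516 were higher in all 3, and the groups overlapped for Mecom, Ctbp1, Cebpb and Med1.

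No member gene passed the test across all genes. Of the 10 members, 9 passed the filter on low counts and were tested, and 0 of these 9 had an adjusted p under 0.05 in edgeR, where 160 of 16394 genes (0.976%) did. At an unadjusted p under 0.05 there were 3 of 9, against 18.8% of all genes tested. Ehmt1 and Zfp516 were on the higher side, where 7.64% of all genes were, and Prdm16 on the lower, where 11.2% were. DESeq2 called 1 of the 9, Zfp516, against 8.0% of all genes. These counts turned on single mice: without Ksp-Cre/Prdm16fl/fl mouse 3 edgeR called 3053 genes and 1 member, Zfp516, and without any 1 of the other 4 mice it called 0 genes. The CPM of the groups did not overlap for 5 of 9 members, 4 of them higher and 1 lower, where 41.6% of all genes showed no overlap. Among the 8 partners tested, 6 had a log2 fold change above 0, as 54.0% of all genes did, and 2 below, with a median of 0.19 beside 0.038 for all genes.

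Taking the median of the 8 partners in each mouse, as log2 CPM against the mean of the 2 controls, the values of Ksp-Cre/Prdm16fl/fl mice 1, 2 and 3 were 0.19, 0.11 and 0.34. The Prdm16fl/fl mice stood at 0.05 and -0.05. All 3 Ksp-Cre/Prdm16fl/fl mice were above both controls, mouse 3 the most. The 2 control values mirror each other by construction, since each gene is set against their mean. The same median over all genes is not given for each mouse, so these values are a description only.

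**Figure D2:**
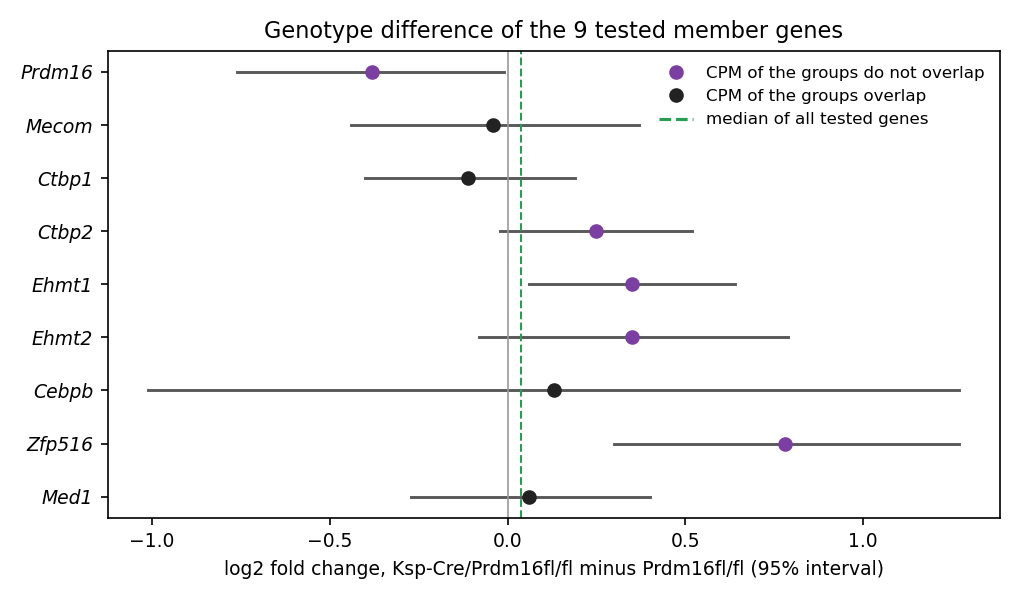
Log2 fold change (points) and its 95% interval (lines) for each tested member, from edgeR with 2 Prdm16fl/fl and 3 Ksp-Cre/Prdm16fl/fl libraries. The intervals of Prdm16, Ehmt1 and Zfp516 leave out 0, that of Cebpb is the widest and runs from -1.01 to 1.27, and the dashed line is the median of all tested genes, 0.038.

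Mecom, the paralogue, was near the same level in both genotypes. It was at 75.2 and 63.6 CPM in the Prdm16fl/fl mice and at 79.9, 63.9 and 59.0 CPM in the Ksp-Cre/Prdm16fl/fl mice, with overlap of the groups. Its log2 fold change was -0.04 (95% interval -0.44 to 0.37, edgeR adjusted p = 0.923), and the sign turned on the TPM scale (0.18). Relative to the medians of all genes, 0.038 in the count test and 0.228 on the TPM scale, Mecom stood at -0.08 and -0.04. The interval leaves room for a difference of the size seen for Prdm16. The TPM of Mecom was 3.02 and 3.23 times that of Prdm16 in the Prdm16fl/fl mice and 4.73, 3.83 and 3.33 times in the Ksp-Cre/Prdm16fl/fl mice, so Mecom exceeded Prdm16 in every library.

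The 2 paralogues also share letters at their starts. RefSeq promoter windows (GRCm38.p6, 250 bases before and 50 after the start) were given for 8 of the 10 members, 3 of them with 2 windows. In the 52 comparisons of windows of different members, the longest run of identical bases was 24, between Prdm16 and the distal window of Mecom, and the next longest was 14. The run is printed because it joins the 2 paralogues and no other member.
Shared run: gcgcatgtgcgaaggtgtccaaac
It lies at chr4:154636841-154636864 in Prdm16 and at chr3:30509710-30509733 in Mecom, both on the minus strand, inside an annotated exon and outside coding sequence, and begins at base 10 and base 27 of the transcribed part. Among 32851 windows of all genes, 2 held it, those of Prdm16 and Mecom.
The 250 bases upstream of the Prdm16 start, at chr4:154636874-154637123, are printed with the letters GGGCGG (GC box), CCAAT and TATAAA, searched on both strands, in capitals.
Prdm16: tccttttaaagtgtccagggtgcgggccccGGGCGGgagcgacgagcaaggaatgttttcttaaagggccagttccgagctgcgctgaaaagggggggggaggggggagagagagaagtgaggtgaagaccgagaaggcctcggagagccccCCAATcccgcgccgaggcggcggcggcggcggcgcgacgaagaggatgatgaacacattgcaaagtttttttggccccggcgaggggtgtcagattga
The window had 22 CpG dinucleotides, more than 85.2% of all windows, and 62.4% G and C. It held 1 GC box, found in 32.7% of all windows, and 1 CCAAT, found in 33.8%, and no TATAAA on either strand, which 12.4% hold.

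The CtBP corepressors differed in level more than in response. CtBP1 and CtBP2 are dehydrogenase-like proteins that bridge DNA-binding factors to histone-modifying enzymes. Ctbp1 was at 169 and 189 CPM in the Prdm16fl/fl mice and at 169, 156 and 172 CPM in the Ksp-Cre/Prdm16fl/fl mice. The groups overlapped (log2 fold change -0.11, 95% interval -0.4 to 0.19, edgeR adjusted p = 0.668), and on the TPM scale the sign turned (0.13). Relative to the medians of all genes, Ctbp1 stood at -0.15 in the count test and at -0.1 on the TPM scale. Ctbp2 was at 42.0 and 45.2 CPM against 50.8, 54.8 and 50.3 CPM, with every Ksp-Cre/Prdm16fl/fl mouse above both controls. Its log2 fold change of 0.25 ± 0.11 had an interval that includes 0 (-0.02 to 0.52, edgeR adjusted p = 0.29). The ratio of Ctbp1 to Ctbp2 in TPM was 31.6 and 32.8 in the Prdm16fl/fl mice and 26.1, 22.4 and 27.0 in the Ksp-Cre/Prdm16fl/fl mice, lower in all 3. Ctbp2 has the second longest merged exon sequence of the members, 20452 bases, and Ctbp1 has 2601. TPM divide each count by this length, so the ratio in TPM is larger than the ratio of the CPM above. Of the bases of Ctbp2, 928 overlap a gene on the other strand that had 1 count in all libraries together.

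Ehmt1 and Ehmt2, the methyltransferases GLP and G9a that form a pair on lysine 9 of histone H3, were both higher in every Ksp-Cre/Prdm16fl/fl mouse. Ehmt1 was at 36.2 and 34.7 CPM in the Prdm16fl/fl mice and at 42.5, 43.9 and 49.2 CPM in the Ksp-Cre/Prdm16fl/fl mice. The log2 fold change was 0.35 ± 0.12 (95% interval 0.06 to 0.64, unadjusted p = 0.0269, edgeR adjusted p = 0.203). Ehmt2 was at 149 and 134 CPM against 159, 164 and 220 CPM, the highest value being that of Ksp-Cre/Prdm16fl/fl mouse 3. Its log2 fold change was 0.35 ± 0.18 (95% interval -0.08 to 0.79, edgeR adjusted p = 0.35) and 0.19 without that mouse (adjusted p = 0.225). The ratio of Ehmt2 to Ehmt1 in TPM was 4.36 and 4.08 in the Prdm16fl/fl mice and 3.95, 3.95 and 4.72 in the Ksp-Cre/Prdm16fl/fl mice, with overlap.

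The upstream windows of this pair are shown, and both genes had values above the controls in all 3 mice, as Ctbp2 and Zfp516 also had. The same letters are in capitals, on either strand, and overlapping matches run together.
Ehmt1, chr2:24919610-24919859, minus strand: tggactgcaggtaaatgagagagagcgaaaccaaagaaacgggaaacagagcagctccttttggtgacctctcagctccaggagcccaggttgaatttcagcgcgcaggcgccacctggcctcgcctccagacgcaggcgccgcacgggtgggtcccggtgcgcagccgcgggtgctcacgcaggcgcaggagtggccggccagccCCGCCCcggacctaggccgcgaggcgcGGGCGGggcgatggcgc
Ehmt2, chr17:34898224-34898473, plus strand: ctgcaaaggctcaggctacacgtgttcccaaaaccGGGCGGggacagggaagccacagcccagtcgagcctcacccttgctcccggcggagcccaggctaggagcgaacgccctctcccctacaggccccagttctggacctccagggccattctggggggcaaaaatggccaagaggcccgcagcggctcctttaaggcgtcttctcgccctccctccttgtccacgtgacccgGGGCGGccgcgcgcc
Ehmt2, chr17:34898720-34898969, plus strand: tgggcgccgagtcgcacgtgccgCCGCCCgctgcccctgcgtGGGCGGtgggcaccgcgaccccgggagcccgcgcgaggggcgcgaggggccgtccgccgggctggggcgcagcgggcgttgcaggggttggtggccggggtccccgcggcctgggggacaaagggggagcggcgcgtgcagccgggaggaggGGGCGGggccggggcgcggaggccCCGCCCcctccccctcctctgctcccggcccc
Ehmt1 had 26 CpG dinucleotides and 2 GC boxes, and the 2 windows of Ehmt2 had 18 and 36 CpG dinucleotides and 2 and 4 GC boxes. None of the 3 held CCAAT or TATAAA. The 2 windows of Ctbp2 differed from these, with 7 and 2 CpG dinucleotides, no GC box and CCAAT in each, and 1 of them held TATAAA. Over the 11 windows of members, 8 held a GC box, 5 held CCAAT and 1 held TATAAA. These matches describe letters only, since no binding or methylation was measured in these samples.

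Zfp516 showed the largest fold change of the 9 members tested. ZFP516 is a zinc finger protein induced by cold in brown fat. The gene was at 16.2 and 13.7 CPM in the Prdm16fl/fl mice and at 22.2, 24.2 and 31.1 CPM in the Ksp-Cre/Prdm16fl/fl mice, without overlap. The level was 1.72 times as high (log2 fold change 0.78 ± 0.2, 95% interval 0.3 to 1.27, unadjusted p = 0.00706), and edgeR gave an adjusted p of 0.118. DESeq2 gave the same fold change with an adjusted p of 0.0276. Without Ksp-Cre/Prdm16fl/fl mouse 3, the highest library, the fold change was 0.63 and edgeR's adjusted p 0.0166, and over all alternatives the fold change ranged from 0.63 to 0.96 and the adjusted p from 0.0166 to 0.652.

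Cebpb, a transcription factor that is also induced by inflammation and stress in many tissues, was the most variable member. It was at 32.8 and 44.6 CPM in the Prdm16fl/fl mice and at 28.6, 26.0 and 72.3 CPM in the Ksp-Cre/Prdm16fl/fl mice. Mouse 3 of the latter group was above both controls and its mice 1 and 2 were below both. With all libraries the log2 fold change was 0.13 ± 0.47 (edgeR adjusted p = 0.907). Without Ksp-Cre/Prdm16fl/fl mouse 3 it was -0.5 ± 0.15 (edgeR, unadjusted p = 0.0109, adjusted p = 0.0549). Without Prdm16fl/fl mouse 1 it was -0.08, so the sign turned when either of these mice was left out.

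Med1, the Mediator subunit that contacts nuclear receptors, did not separate the groups. It was at 58.0 and 48.1 CPM in the Prdm16fl/fl mice and at 52.1, 53.2 and 61.0 CPM in the Ksp-Cre/Prdm16fl/fl mice (log2 fold change 0.06, 95% interval -0.27 to 0.4, edgeR adjusted p = 0.839).

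Ebf2, which marks brown fat precursors, was at the limit of detection. It had 1 count in Prdm16fl/fl mouse 1 and 0 in the other 4 libraries, was removed by the filter on low counts, and was not tested. A count of 0 allows up to 3 counts, or 0.17 to 0.215 CPM in these libraries, counting error only. No difference in Ebf2 was detectable at this depth.

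Per exon length the members covered a wide range. By median TPM over the 5 libraries the order was Ctbp1 (159), Ehmt2 (79.2), Cebpb (50.5), Ehmt1 (20.0), Mecom (17.5), Med1 (17.2), Ctbp2 (5.88), Prdm16 (4.58), Zfp516 (2.34) and Ebf2 (0). The ranges over libraries overlapped between Ehmt2 and Cebpb, between Ehmt1 and Mecom, between Mecom and Med1, and between Ctbp2 and Prdm16, so those neighbors have no fixed order. The other neighbors were separate in all 5 libraries. On this scale Prdm16 was among the lowest of the members, with 4.21 to 5.86 TPM. The order depends on the merged exon lengths that TPM divide by, from 1518 bases for Cebpb to 25477 for Zfp516.

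**Figure D3:**
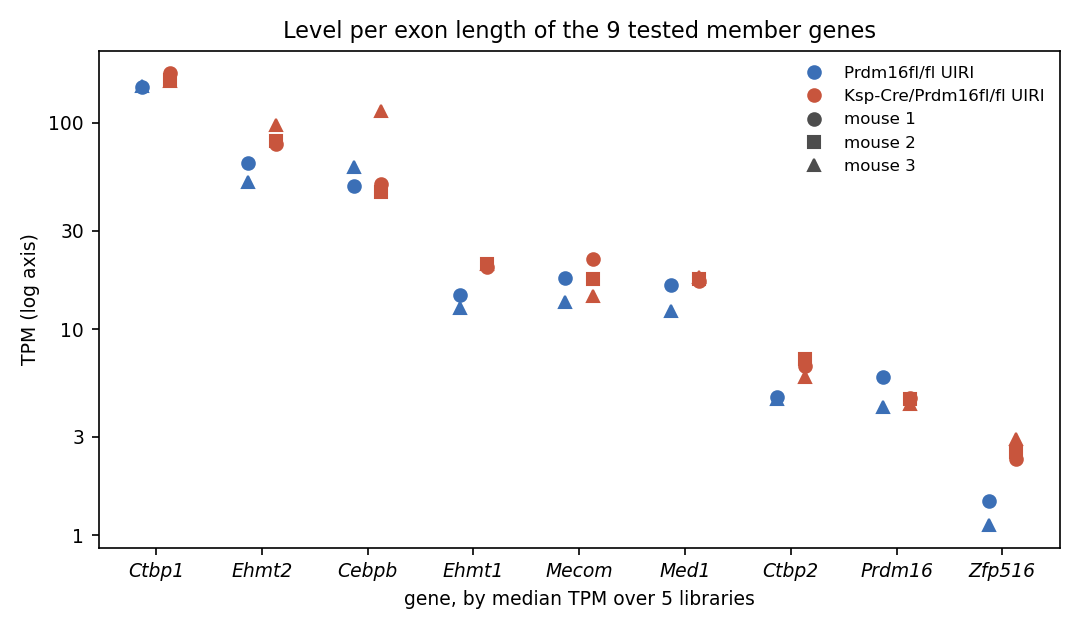
Deposited TPM of the 9 tested members in each library, on a log axis, ordered by the median over 5 libraries. Ctbp1 is highest (149 to 174) and Zfp516 lowest (1.12 to 2.92), and Ebf2, at 0 in 4 libraries, is not drawn.

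Within the PRDM family, 16 genes were looked up and 11 were tested. By median TPM the highest were Prdm4 (21.5), Mecom (17.5) and Prdm2 (13.5), followed by Zfp408 (8.21), Prdm9 (7.85) and Prdm15 (4.99), with Prdm16 next at 4.58. Prdm10 (2.09), Prdm11 (1.2) and Prdm1 (0.883) were lower. Prdm8, Prdm12 and Prdm13 had no count in any library, Prdm14 had 1 count in all, and Prdm6 had 1 to 4 counts per library.

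No PRDM gene passed the test across all genes. Prdm16 was the 1 of 11 with an unadjusted p under 0.05, where 18.8% of all genes tested were. It had the lowest log2 fold change of the family, and Prdm4 the highest, 0.45 ± 0.2 (edgeR adjusted p = 0.302, 29.0 and 26.7 against 33.1, 33.1 and 48.3 CPM), or 0.25 without Ksp-Cre/Prdm16fl/fl mouse 3. Prdm2, a histone methyltransferase, was at 65.7 and 53.3 CPM against 83.6, 71.7 and 70.8 CPM (log2 fold change 0.34, adjusted p = 0.28, and 0.2 without Prdm16fl/fl mouse 3). Prdm15 was at 15.7 and 15.5 CPM against 14.1, 14.3 and 10.6 CPM (log2 fold change -0.26, adjusted p = 0.497), or -0.13 with mouse 3 of the latter group left out. The log2 fold changes of Prdm1, Prdm11 and Zfp408 were 0.2, 0.15 and 0.21, and those of Prdm9 and Prdm10 were -0.1 and -0.15. The last 2 turned sign on the TPM scale, where the median of all genes was 0.228. In the count test the median of the 11 was -0.04.

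Cdh16, whose promoter drives Cre, was at 980 and 944 CPM in the Prdm16fl/fl mice and at 868, 890 and 575 CPM in the Ksp-Cre/Prdm16fl/fl mice. It was lower in all 3, most of all in mouse 3 (log2 fold change -0.31 ± 0.22, edgeR adjusted p = 0.497, and -0.13 without that mouse). Set against it, Prdm16 had 25.8 and 21.2 counts per 1000 Cdh16 counts in the Prdm16fl/fl mice and 19.8, 19.1 and 31.3 in the Ksp-Cre/Prdm16fl/fl mice. The ratio was lower in mice 1 and 2 and higher than both controls in mouse 3. In whole tissue, fewer cells of a type and less RNA per cell cannot be told apart.

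The 5 genes whose profile over the 5 libraries was nearest to that of Prdm16, by the root mean square difference of centred log2 CPM among 13872 genes, were Epb41l3 (0.0167), Habp2 (0.0407), Gm13778 (0.0491), Myom1 (0.0493) and C2cd2l (0.0532). Epb41l3, a membrane skeleton protein, was at 58.8 and 46.2 CPM against 40.6, 39.4 and 42.8 CPM. Habp2, a serine protease that binds hyaluronan, was at 149 and 126 CPM against 100, 101 and 105 CPM. Within 0.1 of Prdm16 there were 57 genes. With 5 libraries such a likeness is a description of the profile only.

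**Figure D4:**
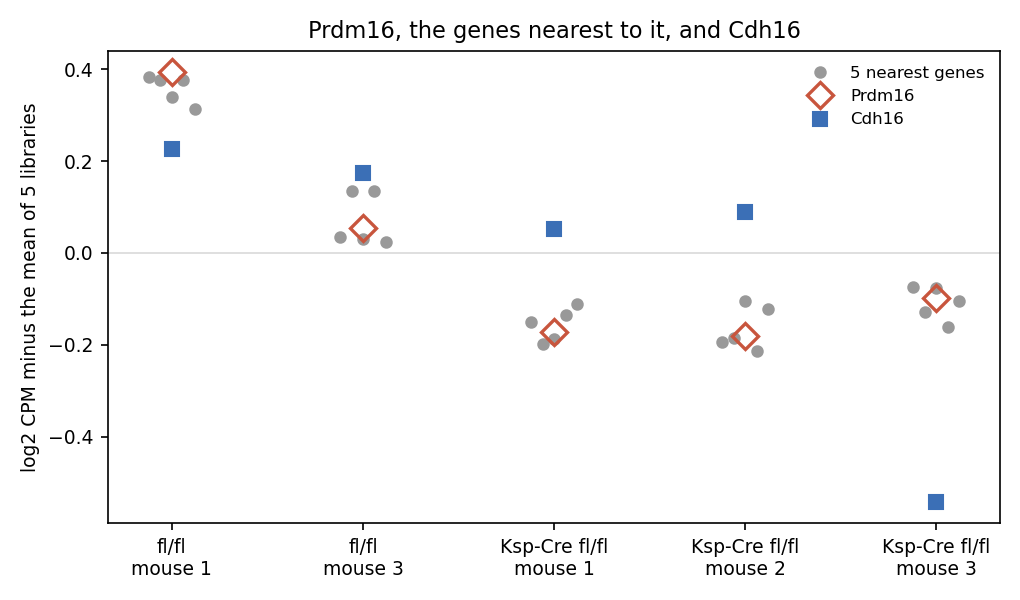
Log2 CPM of each gene minus its mean over the 5 libraries, for Prdm16 (diamonds), the 5 genes nearest to it (circles) and Cdh16 (squares). Prdm16 and its nearest genes are highest in Prdm16fl/fl mouse 1 and below their mean in all 3 Ksp-Cre/Prdm16fl/fl mice, and Cdh16 is lowest in Ksp-Cre/Prdm16fl/fl mouse 3.

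Around the members, 119 further genes were followed in lists of the same pathways, of which 103 were tested. In edgeR 0 of 103 had an adjusted p under 0.05, and 18 had an unadjusted p under 0.05 (17.5%, beside 18.8% of all genes), 12 higher and 6 lower, beside 7.64% and 11.2% of all genes. DESeq2 called 5, Suv39h1, Ppargc1a, Smad3, Skil and Fabp3, and 8.0% of all genes. The median log2 fold change of the 103 was 0.08.

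Among 13 methyltransferases and readers of lysine 9 of histone H3, Ehmt1 and Ehmt2 included, 7 were higher in all 3 Ksp-Cre/Prdm16fl/fl mice than in both controls and none was lower in all 3, where 20.3% and 21.3% of all genes were. The median was 0.32, and 6 of 13 had an unadjusted p under 0.05, all on the higher side, where 7.64% of all genes were. EdgeR called 0 of 13 and DESeq2 1, where DESeq2 called 8.0% of all genes. The list was chosen with earlier results of these data known, so these counts describe it and do not test it. Suv39h1, which trimethylates this residue, had the highest log2 fold change, 0.56 ± 0.13 (20.6 and 21.0 against 29.8, 28.9 and 33.4 CPM, edgeR adjusted p = 0.102, DESeq2 adjusted p = 0.0377). Setdb2 had the lowest, -0.44 ± 0.37 (edgeR adjusted p = 0.561), a value that rested on the controls, at -0.01 with Prdm16fl/fl mouse 3 left out and -0.78 with mouse 1 left out. Trim28, Cbx3, Setdb1 and Wiz, whose protein joins EHMT1 and EHMT2, had log2 fold changes of 0.4, 0.35, 0.33 and 0.32, and were named after their values were seen. The 7 demethylases of the same residue ran from 0.07 (Kdm4b) to 0.38 (Phf8, 0.22 without Prdm16fl/fl mouse 3), with a median of 0.16. Of these 7, 1 had an unadjusted p under 0.05, beside 18.8% of all genes.

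The CtBP and CoREST corepressor list had a median of 0.14 over 15 genes. In it 1 gene had an unadjusted p under 0.05, beside 18.8% of all genes. This was Wiz, which is also in the list of methyltransferases and readers. Gse1 was highest (0.46, edgeR adjusted p = 0.391, 48.7 and 47.6 against 51.4, 56.6 and 90.3 CPM), and was at 0.17 without Ksp-Cre/Prdm16fl/fl mouse 3. Of 33 Mediator genes, 18 were above 0 and 15 below, with a median of 0.02. Med21 was lowest, at 46.6 and 60.8 against 36.2, 39.0 and 27.6 CPM (log2 fold change -0.65 ± 0.19, edgeR adjusted p = 0.16, and -0.51 with adjusted p = 0.033 without Ksp-Cre/Prdm16fl/fl mouse 3). Med18 was highest (0.4 ± 0.29, adjusted p = 0.492, and 0.22 without the same mouse).

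In the C/EBP list, Cebpa, a factor of differentiated epithelium and fat, was at 64.4 and 76.1 CPM against 63.2, 61.6 and 39.6 CPM (log2 fold change -0.36, edgeR adjusted p = 0.439), or -0.17 with mouse 3 of the latter group left out. Cebpd was at 26.6 and 22.0 CPM against 45.2, 25.7 and 38.6 CPM (0.59, adjusted p = 0.29). In the EBF list Ebf1 (-0.04) was lowest and Ebf4 (0.45, adjusted p = 0.366) highest, the median being 0.01. The genes of PRDM16 protein stability, Cul2 and Appbp2, parts of a ubiquitin ligase for PRDM16, had log2 fold changes of -0.12 and 0.35, neither called.

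Ppargc1a, the coactivator of mitochondrial genes that PRDM16 binds, was at 72.6 and 71.8 CPM in the Prdm16fl/fl mice and at 51.4, 55.5 and 53.2 CPM in the Ksp-Cre/Prdm16fl/fl mice. It was lower in all 3 (log2 fold change -0.44 ± 0.1, unadjusted p = 0.00485), with an adjusted p of 0.102 in edgeR and 0.0369 in DESeq2. On log2(TPM + 1), where the median of all genes was 0.228, Ppargc1a was at -0.18 (limma, adjusted p = 0.463). With the mouse number as a replicate block it was at -0.47 (edgeR, adjusted p = 0.372). Among the other brown fat transcription partners, Rxra was highest (0.27 ± 0.26, edgeR adjusted p = 0.62), with Ksp-Cre/Prdm16fl/fl mouse 3 at 157 CPM and the other 4 libraries at 87.9 to 102 CPM.

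Most of the brown fat targets of PRDM16 were barely read. Of 11, 3 were tested: Ppargc1a, Kcnk3 (-0.2, edgeR adjusted p = 0.857) and Fabp3. Ucp1 had 2 or 3 counts in each library, Cidea at most 2, Elovl3 0 in all, Cox8b 1 in all libraries together, Adrb3 at most 1 in any library, Cox7a1 3 to 5 and Cpt1b 5 to 10. Dio2, the deiodinase that activates thyroid hormone, had 1 and 2 counts in the Prdm16fl/fl mice and 7, 8 and 5 in the Ksp-Cre/Prdm16fl/fl mice, higher in all 3, and was removed by the filter on low counts. Fabp3, a fatty acid carrier also made in heart and muscle, was at 85.7 and 78.7 CPM in the Prdm16fl/fl mice and at 50.0, 32.0 and 31.8 CPM in the Ksp-Cre/Prdm16fl/fl mice, lower in all 3 (log2 fold change -1.12 ± 0.22, edgeR adjusted p = 0.0726, DESeq2 adjusted p = 0.00103). Of the 4 white fat genes held down through CtBP, Retn had 3 counts in Ksp-Cre/Prdm16fl/fl mouse 3 alone and Serpina3k 1 count in all. Agt (0.25) and Rarres2 (-0.1) were tested, and neither separated the groups.

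In the SMAD, SKI and H-Ras list, taken because the study works with SMAD3 and H-Ras, 5 of 6 genes were higher in all 3 Ksp-Cre/Prdm16fl/fl mice and 1 was lower in all 3, as were 20.3% and 21.3% of all genes. None of the 6 was called by edgeR, while DESeq2 called 2 (8.0% of all genes). Skil, a nuclear repressor of SMAD signaling, was highest, at 58.9 and 51.9 against 79.1, 82.0 and 98.0 CPM (log2 fold change 0.64 ± 0.14, edgeR adjusted p = 0.0914, DESeq2 adjusted p = 0.0142). Hras was lowest, at 52.9 and 61.5 against 48.1, 41.9 and 47.3 CPM (-0.32 ± 0.13, edgeR adjusted p = 0.252, and -0.21 without Prdm16fl/fl mouse 3). Smad3 was at 57.8 and 55.5 against 79.6, 72.8 and 84.0 CPM (0.48, edgeR adjusted p = 0.111), and is named because DESeq2 called it.

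**Figure D5:**
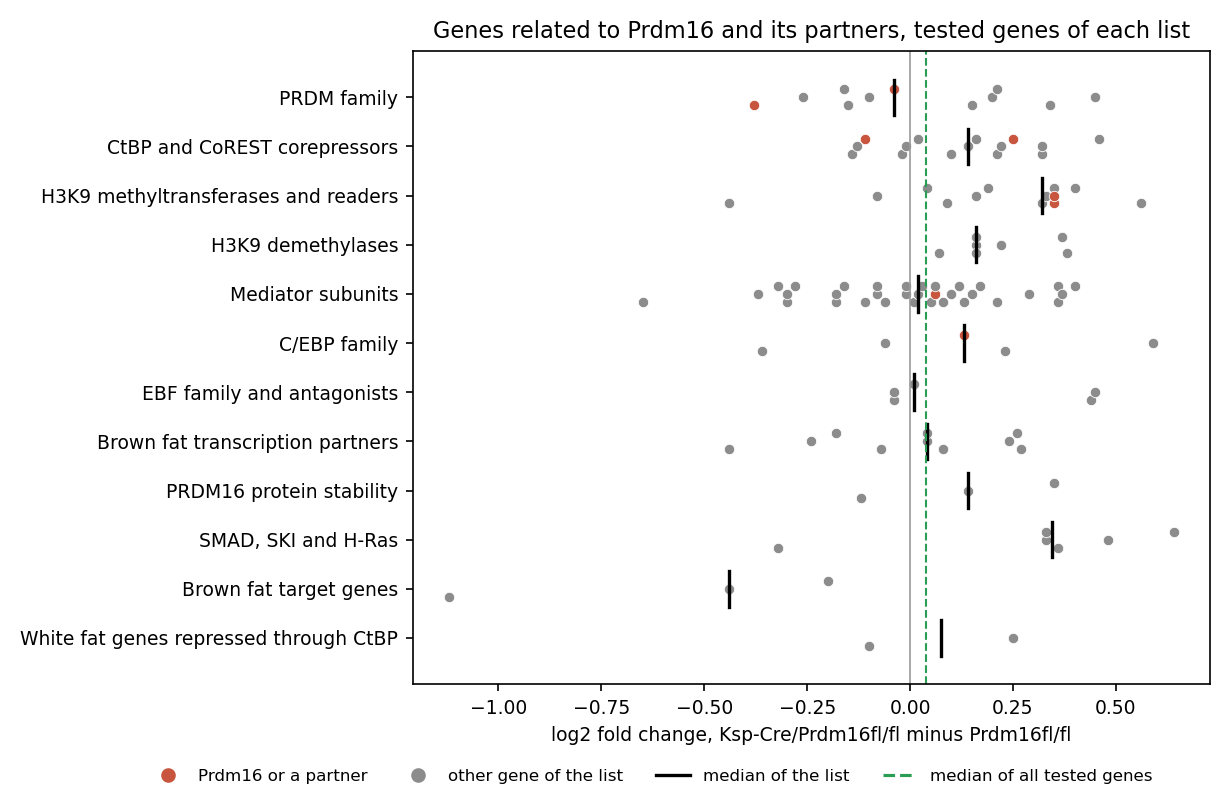
Log2 fold change of every tested gene of each related list (points), with Prdm16 and its partners in red, the median of each list as a black bar and the median of all tested genes, 0.038, as a dashed line. The list medians run from -0.44 (3 tested brown fat targets) to 0.35 (SMAD, SKI and H-Ras), and no point passed the adjusted test in edgeR.

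Markers of several kidney cell types differed between the genotypes beside these values. All 7 proximal tubule markers, such as Slc34a1, Lrp2 and Miox, were lower in all 3 Ksp-Cre/Prdm16fl/fl mice, as 21.3% of all genes were, with a summed level of 1630 to 3030 CPM against 7040 to 7580 CPM. So were 3 of 3 distal convoluted tubule markers (201 to 827 against 956 to 1510 CPM), 4 of 4 intercalated cell markers (102 to 139 against 183 to 240 CPM), 3 of 4 podocyte markers (300 to 331 against 448 to 579 CPM), 2 of 4 of the thick ascending limb (1180 to 2480 against 2620 to 3600 CPM) and 2 of 5 of principal cells (216 to 374 against 384 to 447 CPM). EdgeR called Miox and the podocyte gene Nphs1 (-0.85, adjusted p = 0.0412) among them. Higher in all 3, as 20.3% of all genes were, were 5 of 6 tubular injury markers (2060 to 2190 against 1130 to 1180 CPM), 5 of 5 erythroid markers (40.5 to 151 against 6.67 to 10.8 CPM) and 3 of 5 stromal markers (320 to 460 against 223 to 275 CPM). The summed levels of endothelial, macrophage, T cell, B cell, neutrophil and proliferation markers overlapped between the genotypes.

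Among the 6 adipocyte markers Adipoq, Lep and Cfd had at most 1 count in any library and Plin1 at most 4. Cidec, a lipid droplet protein, had 1 and 8 counts in the Prdm16fl/fl mice and 6, 13 and 54 in the Ksp-Cre/Prdm16fl/fl mice, with overlap (log2 fold change 2.26 ± 1.27, edgeR adjusted p = 0.394). Fabp4, which endothelial cells also make, was at 30.2 and 30.2 against 36.1, 32.4 and 58.7 CPM. Ksp-Cre/Prdm16fl/fl mouse 3 stood apart over all genes, with correlations of log2 CPM of 0.943 to 0.960 to the other libraries, where Ksp-Cre/Prdm16fl/fl mice 1 and 2 had 0.991 and the controls 0.989. The part of cell composition, and of that mouse, in the values of Prdm16 and its partners was not tested beyond the values without it.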

How the data were processed

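RNA was sequenced from 5 injured mouse kidneys, 2 Prdm16fl/fl and 3 Ksp-Cre/Prdm16fl/fl, from oligo(dT)-selected libraries as paired reads of 150 bp. The authors deposited raw counts per gene, without normalization, and TPM, which divide each count by the merged exon length and scale each library to 1000000. The submitters' notes name CASAVA, featureCounts 2.0.1 and DESeq2 1.16.1, and a human genome build that the mouse gene names and chromosomes in the files go against; the aligner, the mouse build and the strand setting are not given in the sources used here. Deposited FPKM were not used. Rows of 5 genes that ran over a line break were joined again.

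Counts were filtered with filterByExpr, scaled with TMM and tested between genotypes over all 16394 genes kept with edgeR 4.0.16 (quasi-likelihood, Benjamini-Hochberg adjustment, two-sided, R 4.3.3). CPM are per 1000000 TMM-scaled counts. Groups were said not to overlap where all CPM of one lay above all of the other. Alternatives were DESeq2 1.42.0, limma 3.58.1 on log2(TPM + 1) and log2(TPM + 0.1), other scalings and filters, a replicate block and leaving out each mouse. The scripts were tested on simulated data. Promoter windows are those of RefSeq (GRCm38.p6), and exon and transcript sequences those of GENCODE M21 (GRCm38), a build whose coordinates differ from those in the files. Windows for Zfp516 and Ebf2 were not used here.

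The 10 members and all lists were chosen with earlier results of these data known. Named are the members, all measured PRDM genes, Cdh16, Ppargc1a, the 5 genes nearest to Prdm16, and of each other list the genes called at an adjusted p under 0.05 or else its highest and lowest log2 fold change, except items that are not reported here; further genes are said to be named after their values were seen or because DESeq2 called them.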

Additional observations from a re-analysis of the deposited data

How the results depend on the processing

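Prdm16 kept its direction and stayed above an adjusted p of 0.05 in every alternative, at -0.54 to -0.11 with adjusted p from 0.088 to 0.737. The number of members called was 1 with DESeq2, which called 8.0% of all genes, and 0 to 1 with a Ksp-Cre/Prdm16fl/fl mouse dropped. At an unadjusted p under 0.05 there were 3 in the main test and 1 with a replicate block. With such a mouse dropped there were 1 to 5. The 5, and the 1 called, came from the fit lacking Ksp-Cre/Prdm16fl/fl mouse 3, in which edgeR called 3053 genes. The main test had 18.8% of all genes at that p, and the share in the other settings is not given. These counts therefore describe the members and do not test them. Genes called, 160 in the main test, were 1210 with DESeq2, 471 with no count filter, 51 with library size scaling, 46 and 43 with limma on log2(TPM + 1) and log2(TPM + 0.1), and 0 to 3053 when a mouse was left out. The partner median of 0.19 was 0.35 and 0.39 on the 2 TPM scales and 0.12 to 0.31 when a mouse was left out. The median of all genes moved as well, from 0.038 in the main test to 0.228 and 0.255 on the TPM scales. When a mouse was left out it was 0.018 to 0.041. The causes were not tested.

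The mouse numbers shared by the groups do not pair them by any label. Deviations from the group mean correlated at 0.00102 (mice 1) and -0.022 (mice 3) for same-numbered mice. With the numbers crossed they correlated at 0.022 (Prdm16fl/fl mouse 1) and -0.00102 (Prdm16fl/fl mouse 3). The deviations of the controls mirror each other by construction, so these values cannot decide whether the mice were paired. With the number as a replicate block, edgeR called 0 genes and Prdm16 was at -0.36.

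Called genes of the lists, 0 in the main test, were with DESeq2 1 for histone H3 lysine 9 methyltransferases, 1 for brown fat partners, 2 for SMAD, SKI and H-Ras and 2 for brown fat targets, and 1 for brown fat targets with no count filter. With a Ksp-Cre/Prdm16fl/fl mouse dropped, they ranged from 0 to 3, 0 to 1, 0 to 3 and 0 to 2 for these. For Mediator they ranged from 0 to 2. Each upper end came from the fit lacking Ksp-Cre/Prdm16fl/fl mouse 3, in which edgeR called 3053 genes. DESeq2 called 8.0% of all genes, and edgeR with no count filter called 471 genes. These counts therefore describe the lists and do not test them.

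Signs turned with library size scaling for Mecom (0.08), Ctbp1 (0.0), Prdm9 (0.0), Ebf1 (0.07) and Rarres2 (0.03). On log2(TPM + 1) and log2(TPM + 0.1) they turned for Mecom (0.18 and 0.19), Ctbp1 (0.13 and 0.13), Prdm10 (0.06 and 0.08), Prdm9 (0.13 and 0.15), Cul2 (0.12 and 0.13) and Rarres2 (0.14 and 0.14). Library size scaling moved the median of all genes to 0.149 and the TPM scales to 0.228 and 0.255. Relative to these medians Mecom stood at -0.07, -0.04 and -0.06 and Ctbp1 at -0.14, -0.1 and -0.12, the sign of the main test. Leaving out a mouse turned the sign of Mecom (-0.17 to 0.09), Cebpb (-0.5 to 0.38), Med1 (-0.07 to 0.2), Prdm9 (-0.34 to 0.19), Prdm10 (-0.29 to 0.01), Kdm4b (-0.01 to 0.11), Ebf1 (-0.09 to 0.01), Rxra (-0.03 to 0.42), Kcnk3 (-0.58 to 0.32), Rarres2 (-0.41 to 0.28) and Agt (-0.12 to 0.67). Where a single Prdm16fl/fl mouse remained, it was assumed to vary like the other group.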
